A study of Homo sapiens with 5 samples.

Results

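The comparison described here set the H157 line with YAP and RBM4 against the H157 line with YAP and the full-length form of the transcription factor TEAD4 (YAP/TEAD4-FL). H157 cells derive from a human lung carcinoma. The pair was picked by sample name and makes up 2 of the 5 libraries of the series. The other 3 came from H157 lines with the empty vector, with YAP alone, and with YAP and the short TEAD4 isoform (YAP/TEAD4-S). All were described as stable lines grown in serum-containing medium and harvested in log growth. By their labels, both lines compared here carried YAP and differed by the second construct. The names of the TEAD4 samples end in 434 and 305, which are the coding lengths, in codons, of an annotated TEAD4 transcript with exon 3 and of one without it. The labels name a pCDNA control, while the methods describe pCDH lentiviral vectors with puromycin selection. Which vector the lines carried is not settled by these sources. Each line gave 1 library and nothing says how many clones or cultures stood behind it, so no test between the lines was possible, and a difference between lines cannot be told apart from a difference between cultures or libraries.

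The deposited values were expected counts, which RSEM estimates for each gene from the aligned reads. They summed to 2396789 with YAP/TEAD4-FL and 2619399 in the YAP/RBM4-labelled library, and to between 1399452 and 3015173 in the other 3. Values below are counts scaled to the library total (CPM). Where a gene has a pair of CPM values without library names, that with YAP/TEAD4-FL comes first. A ratio is the CPM in the YAP/RBM4-labelled library divided by the CPM with YAP/TEAD4-FL. It is followed by its exact 95% interval (Clopper-Pearson), which covers counting error only and not the spread between cultures. A gene was called higher or lower where the ratio, after adding 0.5 CPM on both sides, was at least 2-fold, among genes whose 5 libraries averaged at least 10 CPM. Scaling with TMM factors in place of totals multiplies every ratio by 0.961.

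YAP is the co-activator at the end of the Hippo pathway. The kinases of that pathway, among them LATS1 and LATS2, phosphorylate YAP and keep it out of the nucleus, and YAP that reaches the nucleus binds DNA through TEAD factors. The genes for the secreted matricellular proteins CTGF and CYR61 are its best-known targets. TEAD4 is 1 of the TEAD paralogs, and its short isoform starts downstream of the codons for the DNA-binding region. RBM4 is an RNA-binding protein that acts on the choice of exons in pre-mRNA, and in lung carcinoma cells YAP is known for promoting growth.

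The sequences that tie both constructs to the same pathway are short. Exon 3 of TEAD4 is a coding exon of 255 bases, chr12:3103904-3104158 on GRCh37, in which the study saw a motif resembling a binding site of RBM4. The line below gives 30 bases of it, chr12:3103932-3103961 on the plus strand, read from GRCh37, with the searched letters CGGCCGG in capitals (chr12:3103943-3103949). The coding sequence of the 434-codon transcript starts in the same stretch, at position 3103933, and that of the 305-codon transcript starts at position 3126597. The second sequence is the 250 bases upstream of the start of CTGF (listed as CCN2 in RefSeq, GRCh38.p14, chr6:131951373-131951622, minus strand), with matches to GGAATG, the core letters bound by TEAD factors, in capitals.
TEAD4 exon 3: cttggagggcaCGGCCGGcaccattacctc
CTGF upstream: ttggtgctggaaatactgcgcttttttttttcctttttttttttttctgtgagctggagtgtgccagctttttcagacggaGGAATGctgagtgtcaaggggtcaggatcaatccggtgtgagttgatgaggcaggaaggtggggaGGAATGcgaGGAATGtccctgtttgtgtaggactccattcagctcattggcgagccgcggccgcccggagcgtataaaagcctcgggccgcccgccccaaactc
The CTGF stretch held 3 matches, whose first bases lie 169, 104 and 95 bases before the start. On either strand (GGAATG or CATTCC), such a match was present in 11.9% of 27305 upstream stretches of the same length in the RefSeq table. It was present for 7 of the 19 genes of a list of YAP/TEAD targets that the table holds, for 10 of 114 genes called higher (8.77%) and for 8 of 65 called lower (12.3%), beside 9.14% of the genes above 10 CPM. A match is a description of the letters only. The deposited table counts whole genes, so inclusion of exon 3 in endogenous TEAD4 was not analysed here.

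TEAD4 and RBM4 checked the labels, with opposite outcomes. TEAD4 had 5.73 CPM in the YAP/RBM4-labelled library and 121 with YAP/TEAD4-FL, beside 3.73 with the vector, 3.57 with YAP and 50.03 with YAP/TEAD4-S. Its ratio was 0.0475 (95% interval 0.0262 to 0.0797), and YAP/TEAD4-FL and YAP/TEAD4-S both stood far above the 3 lines without a TEAD4 construct. RBM4 had 167 CPM in the YAP/RBM4-labelled library and 198 with YAP/TEAD4-FL, beside 149.7 with the vector, 202 with YAP and 132 with YAP/TEAD4-S. The library labelled YAP/RBM4 was thus between the others, with a ratio to YAP/TEAD4-FL of 0.846 (0.741 to 0.965), and the added construct is not seen in the counts of RBM4. RBM4 shares 23.8% of its exon bases with other genes of the same strand, which makes the split of reads between them uncertain. For this reason every direction below belongs to the YAP/RBM4-labelled library, in which RBM4 itself was not higher. YAP1, which encodes YAP, had 103 CPM in the YAP/RBM4-labelled library and 136 with YAP/TEAD4-FL, beside 33.1 with the vector, 102 with YAP and 59.4 with YAP/TEAD4-S. Both lines compared here lay above the vector line, and their ratio was 0.763 (0.647 to 0.899). Of its exon bases, 10.1% are shared across strands.

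**Figure D1:**
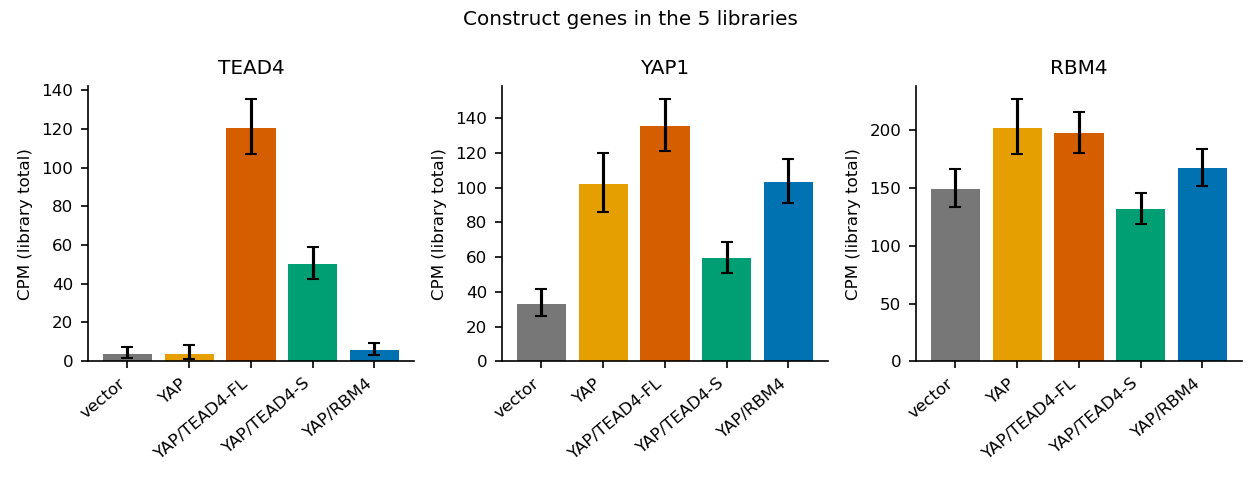
CPM (vertical axes, library total) of TEAD4, YAP1 and RBM4 in the 5 libraries (horizontal axes); each bar is a single library, with its exact 95% counting interval. TEAD4 stood at 121 CPM with YAP/TEAD4-FL and 5.73 CPM in the YAP/RBM4-labelled library, whereas RBM4 stood at 198 and 167 CPM.

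The strand of the reads bears on each value. The column names of the deposited table carry the words second strand, and strandedness of the kit is not stated in the sources read for this work. Among 344 pairs of an antisense RNA gene and the gene opposite to it, the antisense one had more counts on average in 234 (68.02%). VIM-AS1, for example, had 14327 CPM with YAP/TEAD4-FL and 12759 CPM in the YAP/RBM4-labelled library, beside 472 and 517 CPM for VIM, the gene of the intermediate filament vimentin. ACTB, which encodes cytoplasmic actin, had 922 and 959.6 CPM. A value below is therefore the count given to a gene's name in the table, and from which strand its reads came was not tested. VIM and VIM-AS1 share 24.6% and 30.9% of their exon bases across strands. Other named genes above 10 CPM share at most 10% of their exon bases with genes on either strand unless the share is given, and the share is not known for LOC153684 and PECAM1. Such an overlap was found for over 10% of the bases opposite in 20.3% of the genes above 10 CPM, and on the same strand in 8.47%.

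Most genes lay close together in the libraries compared. Of 25343 genes, 8305 passed the 10 CPM filter, and 87.0% of these were within 1.5-fold. The median log2 ratio was 0.059, and the quartiles were −0.17 and 0.27. In the YAP/RBM4-labelled library, 159 genes were called higher (1.91%) and 76 lower (0.915%), so that 235 genes (2.83%) were called in all. The counting interval excluded 1 for every called gene. It lay above 1 for 1233 genes (14.8%) and below 1 for 905 (10.9%) on totals, and with TMM factors for 930 (11.2%) and 1131 (13.6%), so that which side held more genes turned with the scaling. With TMM factors 136 genes were higher (1.64%) and 95 lower (1.14%), so that higher genes made up 58.9% of the called genes, against 67.7% on totals and 56.3% with DESeq2 size factors. At the edge of the call, LTBP2 was just inside at a log2 ratio of 1.001 and A2ML1 just outside at 0.9993, and KIF24 and LOC153684 stood on either side of the lower limit at −1.0003 and −0.991. Protein-coding genes made up 140 of the higher and 66 of the lower genes, and 11 and 7 were long noncoding RNA genes. The mean of the other 3 libraries alone was at least 10 CPM for 149 of the 159 higher and 71 of the 76 lower genes, so that few passed the filter only through a library compared.

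**Figure D2:**
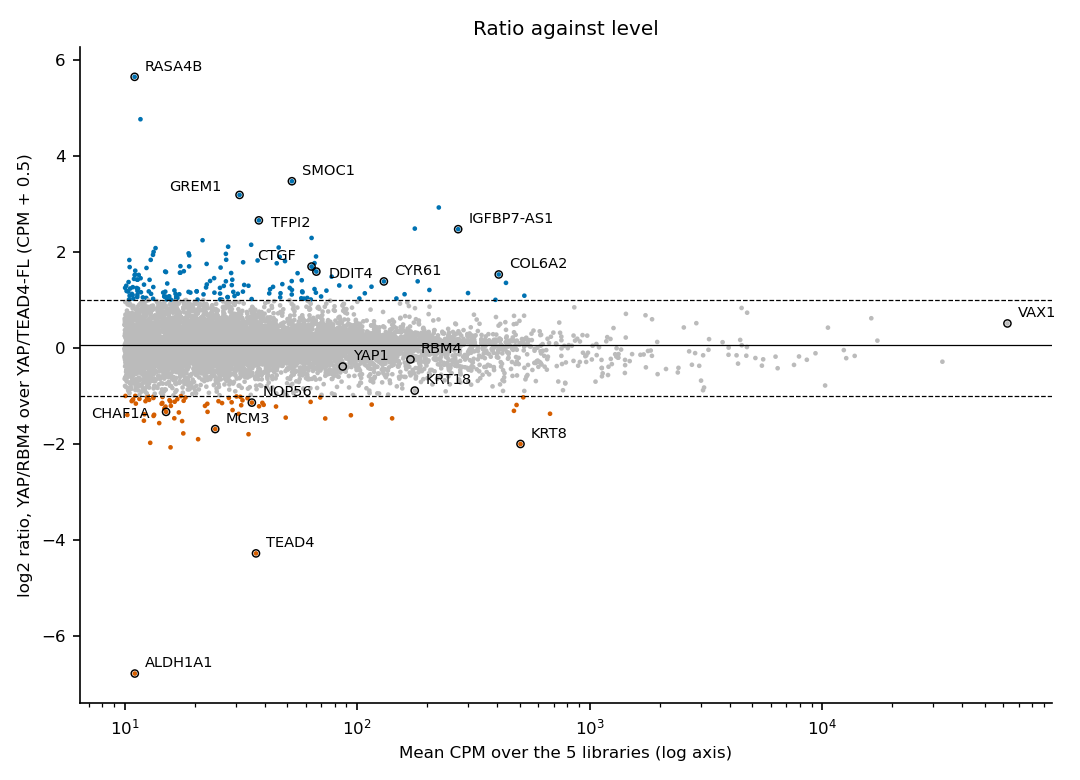
Log2 ratio of the YAP/RBM4-labelled library over YAP/TEAD4-FL (vertical axis, CPM + 0.5) against the mean CPM of the 5 libraries (horizontal log axis) for 8305 genes, with 159 genes called higher in blue, 76 called lower in orange, dashed lines at 2-fold and a solid line at the median of 0.059. TEAD4 and ALDH1A1 lie lowest, RASA4B lies highest, and RBM4 lies near the middle.

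The genes called lower included enzymes of retinoid and DNA metabolism and a pair of epithelial genes. ALDH1A1, an aldehyde dehydrogenase that makes retinoic acid and is used as a stem cell marker, had 0 counts in the YAP/RBM4-labelled, YAP and vector libraries, 0.663 CPM with YAP/TEAD4-S and 54.7 with YAP/TEAD4-FL. Against the floor of 3 counts it was at least 47.7-fold lower in the YAP/RBM4-labelled library, and it passed the filter only through YAP/TEAD4-FL. KRT8, a keratin of simple epithelium, had 253 CPM in the YAP/RBM4-labelled library and 1017 with YAP/TEAD4-FL, beside 429 with the vector, 465 with YAP and 358 with YAP/TEAD4-S. YAP/TEAD4-FL was the highest and the YAP/RBM4-labelled library the lowest of the 5, with a ratio of 0.249 (0.228 to 0.272). KRT18, with which it forms filaments, had 293 and 158 CPM in the pair and a ratio of 0.539 (0.476 to 0.609), not called at 2-fold, and it shares 17.1% of its exon bases with genes on the opposite strand. PKP3, a desmosomal plaque protein, had 19.2 and 6.87 CPM. KRT8 and PKP3 were the called genes among 8 of keratins and the desmosome above 10 CPM, beside 0.915% of all genes called lower. Of the 8, 0 were called higher, beside 1.91% of all genes. The list went both ways, with KRT8, KRT18 and PKP3 below 1 and KRT80, DSG2, DSG3 and PPL above 1. The ratios of these last were 1.499 (1.196 to 1.88), 1.34 (1.07 to 1.67), 1.83 (1.28 to 2.72) and 1.51 (1.004 to 2.295). With TMM factors the interval of PPL included 1. DSC3 had 0.849 (0.674 to 1.08).

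MCM3, a subunit of the replicative helicase, had 14.5 CPM in the YAP/RBM4-labelled library and 47.98 with YAP/TEAD4-FL, beside 17.2 with the vector, 20.7 with YAP and 22.2 with YAP/TEAD4-S. Here YAP/TEAD4-FL stood apart from the other 4, which lay between 14.5 and 22.2 CPM, and the ratio was 0.302 (0.204 to 0.4398). FOXD2, a forkhead transcription factor, had 29.6 CPM in the YAP/RBM4-labelled library and 82.01 with YAP/TEAD4-FL, beside 43.3 with the vector, 57.9 with YAP and 33.7 with YAP/TEAD4-S, with a ratio of 0.361 (0.275 to 0.473). SH3RF3-AS1, a long noncoding RNA gene, had 175 CPM with YAP/TEAD4-FL and from 49.97 to 96.8 CPM in the other 4. In both, YAP/TEAD4-FL was the highest library. The remaining genes of the 12 with the lowest ratios were KIAA1462, MARCH3, FAM13A, TBC1D28 and ZNF302, with ratios from 0.334 for MARCH3 to 0.369 for ZNF302. TBC1D28 differed from these in that the YAP/RBM4-labelled library, at 3.32 CPM, stood below all others, which had from 9.56 to 14.3 CPM.

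SMOC1, GREM1 and TFPI2, which encode secreted proteins, were among the 12 genes with the highest ratios, which RASA4B led. SMOC1, a secreted calcium-binding matricellular protein, had 107 CPM in the YAP/RBM4-labelled library and 9.18 with YAP/TEAD4-FL, beside 61.5 with the vector, 50.02 with YAP and 34.5 with YAP/TEAD4-S. YAP/TEAD4-FL was the lowest and the YAP/RBM4-labelled library the highest, with a ratio of 11.6 (7.54 to 18.9). GREM1, a secreted antagonist of BMP ligands, had 53.4 CPM in the YAP/RBM4-labelled library and 5.42 with YAP/TEAD4-FL, beside 30.3 with the vector, 35.7 with YAP and 31.2 with YAP/TEAD4-S, and its ratio was 9.85 (5.58 to 18.97). The order of the libraries was again lowest with YAP/TEAD4-FL, with the vector, YAP and YAP/TEAD4-S close together. TFPI2, a secreted inhibitor of serine proteases, had 81.6 CPM in the YAP/RBM4-labelled library and 12.5 with YAP/TEAD4-FL, beside 36.8 with the vector, 25.7 with YAP and 32.3 with YAP/TEAD4-S, with a ratio of 6.52 (4.44 to 9.91). EFEMP1, an extracellular glycoprotein of the fibulin family, had 19.6 and 85.1 CPM in the pair. HTRA1, a secreted serine protease, had 12.1 and 55.4 CPM, and TNFRSF11B, the decoy receptor osteoprotegerin, had 7.51 and 37.4 CPM. For each of these 3 genes YAP/TEAD4-FL was the lowest library.

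IGFBP7-AS1, an antisense RNA gene at the locus of the secreted growth factor binding protein IGFBP7, had 358 CPM in the YAP/RBM4-labelled library and 64.1 with YAP/TEAD4-FL, beside 552 with the vector, 258 with YAP and 128 with YAP/TEAD4-S. YAP/TEAD4-FL was the lowest library and the vector the highest, and the ratio was 5.59 (4.695 to 6.65). IGFBP7 itself, which shares 18.3% of its exon bases with genes on the opposite strand, had 20.4 and 102 CPM and a ratio of 4.99 (3.67 to 6.91), so that both names of the locus were higher. L1CAM, a neural cell adhesion molecule, had 4.59 and 20.997 CPM. ATP2B1, a plasma membrane calcium pump, had 5.01 and 20.6 CPM. POLR2B, the second-largest subunit of RNA polymerase II, had 9.18 and 41.2 CPM, with 54.5 CPM in the vector line. All 3 again had their lowest value with YAP/TEAD4-FL.

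RASA4B and IGJ were called higher with widely differing levels in the other libraries. RASA4B, a Ras GTPase-activating protein, had 42.5 CPM in the YAP/RBM4-labelled library and 0.359 with YAP/TEAD4-FL, beside 3.13 with the vector, 9.21 with YAP and 0 with YAP/TEAD4-S, and it passed the filter only through the YAP/RBM4-labelled library. The ratio, 119 (17.9 to 4047), rests on 1 count with YAP/TEAD4-FL, and near-identical copies of this gene exist, between which reads may be split. IGJ, the joining chain of polymeric antibodies, had 16.1 CPM in the YAP/RBM4-labelled library and 1.69 with YAP/TEAD4-FL, beside 24.4 with the vector, 0 with YAP and 1081 with YAP/TEAD4-S. Its 1081 CPM with YAP/TEAD4-S were far above every other library and made up most of the mean on which the filter rests. In the pair IGJ had a ratio of 9.55 (3.49 to 36.9). FAIM3, an Fc receptor for IgM with 24.1% of its bases shared across strands, had 27.95 and 159 CPM in the pair and 484 CPM with the vector.

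**Figure D3:**
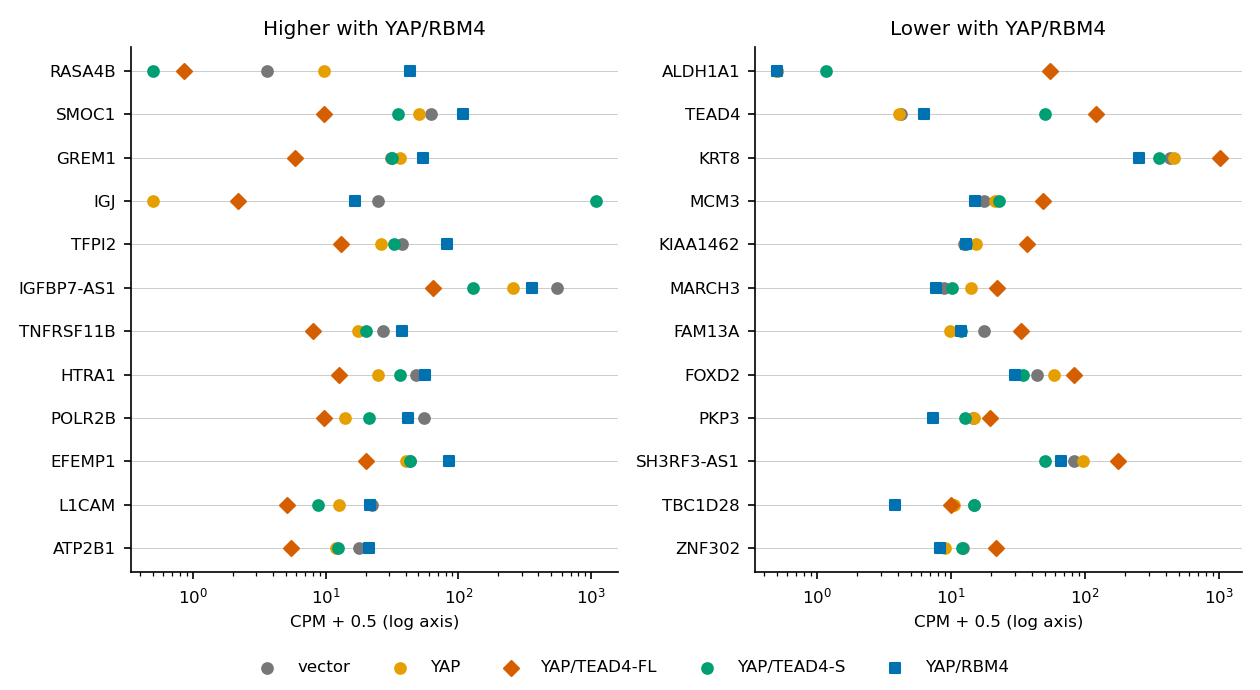
CPM + 0.5 (horizontal log axes) in the 5 single libraries of the 12 genes with the highest (left) and the 12 with the lowest ratio (right) of the YAP/RBM4-labelled library (blue squares) over YAP/TEAD4-FL (orange diamonds); circles are the other libraries. The genes were chosen by this ratio, which sets the order of the pair; the circles show where the other libraries lay, such as IGJ at 1081 CPM with YAP/TEAD4-S.

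The genes that YAP and TEAD factors are known to activate were not called lower in the YAP/RBM4-labelled library, which by its label has no TEAD4 construct. Of a list of 30 such targets, 23 passed the filter; 3 were called higher and 0 lower, beside 1.91% and 0.915% of all genes. CTGF, whose upstream matches are shown above, had 89.7 CPM in the YAP/RBM4-labelled library and 27.4 with YAP/TEAD4-FL, beside 65.2 with the vector, 69.4 with YAP and 66.7 with YAP/TEAD4-S. YAP/TEAD4-FL was the lowest library and the one labelled YAP/RBM4 the highest, with a ratio of 3.28 (2.47 to 4.35), and 11.9% of its bases are shared across strands. CYR61 had 243 CPM in the YAP/RBM4-labelled library and 92.6 with YAP/TEAD4-FL, beside 82.5 with the vector, 114 with YAP and 120.4 with YAP/TEAD4-S, so the YAP/RBM4-labelled library was above the other 4, with a ratio of 2.62 (2.24 to 3.06). F3, the tissue factor that starts coagulation, had 11.6 and 26.7 CPM and a ratio of 2.299 (1.46 to 3.68). AMOTL2, an angiomotin that binds YAP, had 33.8 and 64.9 CPM, just under 2-fold. Over the 23 members the median log2 ratio was 0.17 above that of all genes. The interval lay above 1 for 8 members and below 1 for 1, beside 14.8% and 10.9% of all genes. With TMM factors it lay above 1 for 6 members and below 1 for 2, beside 11.2% and 13.6% of all genes.

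Other parts of the Hippo pathway lay near the median of all genes. Of 16 upstream genes of the pathway above 10 CPM, 0 were called, beside 1.91% of all genes called higher and 0.915% called lower. Their median was 0.061 above that of all genes. On totals the interval lay above 1 for 4 and below 1 for 1, beside 14.8% and 10.9% of all genes. With TMM factors it lay above 1 for 2 and below 1 for 1. FAT1, an atypical cadherin that acts upstream, had 20.4 and 10.3 CPM and the lowest ratio, 0.504 (0.303 to 0.823). Among the paralogs, TEAD3 had 13.7 CPM in the YAP/RBM4-labelled library and 5.01 with YAP/TEAD4-FL, beside 13.5 with the vector, 13.4 with YAP and 6.32 with YAP/TEAD4-S, and its ratio was 2.75 (1.396 to 5.79). The libraries of both TEAD4 isoforms were the lowest for this gene. TEAD1 had a ratio of 0.8202 (0.569 to 1.18), TEAD2, with 10.7% of its bases shared across strands, of 1.03 (0.654 to 1.65), and WWTR1, the gene of the YAP paralog TAZ, of 1.09 (0.89001 to 1.35). All 3 intervals include 1, and the depth allows differences up to the bounds given.

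Genes of the extracellular matrix lay mostly above the median of all genes, 25 of 31 that passed the filter from a list of 48. Of the 31, 7 were called higher and 0 lower, beside 1.91% and 0.915% of all genes, and the median was 0.43 above that of all genes on the log2 scale. COL6A2, a chain of the microfibrillar collagen VI, had 474 CPM in the YAP/RBM4-labelled library and 164 with YAP/TEAD4-FL, beside 774 with the vector, 383 with YAP and 237 with YAP/TEAD4-S, with a ratio of 2.89 (2.58 to 3.25). COL6A1, its partner chain, had 101 and 234 CPM. COL5A1, a chain of the fibril-forming collagen V, had 237 CPM in the YAP/RBM4-labelled library and 90.5 with YAP/TEAD4-FL, beside 251 with the vector, 212 with YAP and 120.1 with YAP/TEAD4-S, with a ratio of 2.62 (2.24 to 3.08). For these chains YAP/TEAD4-FL was the lowest library. COL13A1, a transmembrane collagen, had the highest ratio of the list, 3.79 (2.78 to 5.25). COL7A1, the collagen of anchoring fibrils, had 2.48 (1.96 to 3.16), LAMB3, a chain of the basement membrane laminin 332, had 2.05 (1.71 to 2.46), and TNC, the matricellular protein tenascin C, had 2.05 (1.63 to 2.58). The interval lay above 1 for 17 members, beside 14.8% of all genes, and below 1 for 3, beside 10.9%. These 3 were FN1 (fibronectin) at 0.691 (0.601 to 0.795), the collagen cross-linking enzyme LOX at 0.644 (0.522 to 0.792) and THBS2, a thrombospondin with 31.2% of its exon bases shared, at 0.545 (0.318 to 0.915).

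Genes that act on matrix and adhesion followed with fewer calls. MMP2 and MMP14, a gelatinase and the membrane protease that activates it, had 25.5 and 27.5 CPM with YAP/TEAD4-FL and 67.6 and 61.1 CPM in the YAP/RBM4-labelled library. With the tight junction gene CLDN1, whose ratio was 2.16 (1.33 to 3.598), they were the 3 called genes, all higher, among 15 regulators of epithelial-mesenchymal transition and cadherins, beside 1.91% of all genes. CDH1, the epithelial cadherin, had a ratio of 1.13 (0.941 to 1.36), and CDH2, the neural cadherin, of 1.05 (0.616 to 1.75). Of 10 integrins, 1 was called higher and 0 lower, beside 1.91% and 0.915% of all genes. It was ITGB3, with a ratio of 2.23 (1.22 to 4.28) and 33.2% of its exon bases shared. The interval lay above 1 for 4 of the 10 and below 1 for 0, beside 14.8% and 10.9% of all genes. Among these 4 were ITGB5 at 1.73 (1.15 to 2.64) and ITGA5 at 1.69 (1.16 to 2.48), under 2-fold. Among 38 genes of the actin cytoskeleton and focal adhesions 0 were called in either direction, beside 2.83% of all genes. On totals the interval lay above 1 for 13 and below 1 for 2, beside 14.8% and 10.9% of all genes. With TMM factors it lay above 1 for 10 and below 1 for 6, beside 11.2% and 13.6%.

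The list of ATF4 targets and tRNA synthetases had a median 0.46 above that of all genes, the highest of the 22 lists plotted. ATF4 is the transcription factor that cells make when amino acids run short or the endoplasmic reticulum is stressed, and it activates tRNA synthetases and amino acid enzymes. Of 31 genes on the list of its targets and tRNA synthetases, 28 passed the filter, and 2 were called higher and 0 lower, beside 1.91% and 0.915% of all genes. The interval lay above 1 for 19 of the 28 and below 1 for 0, on totals and with TMM factors alike, beside 14.8% and 10.9% of all genes on totals, and 26 of 28 ratios were above the median of all genes. DDIT4, an inhibitor of mTORC1 signalling, had 120.3 CPM in the YAP/RBM4-labelled library and 39.6 with YAP/TEAD4-FL, beside 75.1 with the vector, 54.3 with YAP and 44.8 with YAP/TEAD4-S, with a ratio of 3.03 (2.405 to 3.86). TRIB3, a pseudokinase induced by ATF4, had 53.9 CPM in the YAP/RBM4-labelled library and 17.9 with YAP/TEAD4-FL, beside 31.3 with the vector, 20.01 with YAP and 20.6 with YAP/TEAD4-S, with a ratio of 3.002 (2.12 to 4.33). The library labelled YAP/RBM4 was the highest of the 5 for both. PSAT1, an enzyme of serine synthesis, had a ratio of 1.83 (1.19 to 2.87), AARS, the alanyl-tRNA synthetase, of 1.81 (1.304 to 2.55), and ATF4 itself of 1.45 (1.22 to 1.72). Under 2-fold, they were not called. In the endoplasmic reticulum folding list, 1 of 15 genes was called higher, CRELD2, with a ratio of 2.12 (1.15 to 4.07), beside 1.91% of all genes. Its intervals lay above 1 for 8 genes and below 1 for 0, beside 14.8% and 10.9% of all genes. HSPA5, the main chaperone of that compartment, had 122 and 153 CPM and a ratio of 1.25 (1.07 to 1.46).

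Of 15 immediate early genes, which respond first to growth factors, 2 were called higher and 0 lower, beside 1.91% and 0.915% of all genes. EGR1, a zinc finger transcription factor, had 82.5 CPM in the YAP/RBM4-labelled library and 39.5 with YAP/TEAD4-FL, beside 59.2 with the vector, 27.2 with YAP and 25.1 with YAP/TEAD4-S, with a ratio of 2.09 (1.63 to 2.68). DUSP1, a phosphatase of MAP kinases, had a ratio of 2.25 (1.35 to 3.87). JUN, a subunit of AP-1, had 66.8 and 122 CPM and a ratio of 1.83 (1.51 to 2.23), under 2-fold. MYC went the other way, with 35.5 and 22.1 CPM and a ratio of 0.624 (0.439 to 0.882). Among 9 genes of the EGF receptor family and its ligands, AREG, the ligand amphiregulin, was called higher, with 8.76 and 34.7 CPM and a ratio of 3.97 (2.45 to 6.71). The receptor EGFR had 1.48 (1.06 to 2.09).

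The lists of the G2 and M phases and of DNA replication had medians below that of all genes by less than 2-fold. Of the 44 genes listed for the G2 and M phases, 27 passed the filter, 0 were called higher and 2 lower, beside 1.91% and 0.915% of all genes, and the median was 0.42 below that of all genes on the log2 scale. The interval lay below 1 for 9 members, beside 10.9% of all genes, and above 1 for 0. With TMM factors it lay below 1 for 12, beside 13.6%, and 23 of 27 ratios were below the median of all genes. CCNB1 (cyclin B1) had 9.93 CPM in the YAP/RBM4-labelled library and 21.3 with YAP/TEAD4-FL, beside 4.66 with the vector, 11.4 with YAP and 10.6 with YAP/TEAD4-S, and CENPF, a kinetochore protein, had 16.8 CPM in the YAP/RBM4-labelled library and 34.2 with YAP/TEAD4-FL, beside 9.32 with the vector, 11.4 with YAP and 15.6 with YAP/TEAD4-S. YAP/TEAD4-FL was the highest library for both, and the other 4 had at most 11.4 CPM of CCNB1 and 16.8 CPM of CENPF. CCNB1, 1 of the 2 genes called lower on this list, passed the filter only through YAP/TEAD4-FL. MKI67, the proliferation antigen, had 97.6 and 62.99 CPM and a ratio of 0.645 (0.525 to 0.791). In the DNA replication list, 26 of 49 genes passed, and 0 were called higher and 3 lower, beside 0.915% of all genes lower, with the median 0.30 below that of all genes. Beside MCM3, they were CHAF1A, a subunit of the chromatin assembly factor, with 29.6 and 11.5 CPM and a ratio of 0.387 (0.244 to 0.6003), and MCM2, another helicase subunit, at 0.405 (0.247 to 0.647), of whose exon bases 23.6% are shared. MCM4, of the same helicase, had 1.09 (0.7896 to 1.49), so the subunits were not alike. The kinetochore list had a median 0.22 below that of all genes with 0 of 15 genes called, beside 2.83% of all genes. The cohesin and condensin list had a median 0.33 below with 1 of 16 called, CDCA5 (sororin), higher at 2.12 (1.41 to 3.28), beside 1.91% of all genes. In these lists the interval lay below 1 for 5 and 3 genes and above 1 for 0 and 1, beside 10.9% and 14.8% of all genes. Other lists of the cell cycle lay elsewhere, with a median 0.17 above that of all genes for 7 G1 cyclins, CDKs and inhibitors and 0.049 below it for 8 genes of the E2F and RB family. In either, 0 genes were called, beside 2.83% of all genes.

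Chaperones, the folding machines of the HSP70, HSP90 and CCT families among them, lay mostly below the median of all genes, 25 of 28 above 10 CPM. Of the 28, 1 was called lower and 0 higher, beside 0.915% and 1.91% of all genes, and the interval lay below 1 for 14, beside 10.9% of all genes, and above 1 for 0. The median was 0.41 below that of all genes. HSPH1, a nucleotide exchange factor of HSP70, had 21.2 CPM in the YAP/RBM4-labelled library and 45.7 with YAP/TEAD4-FL, beside 37.8 with the vector, 28.6 with YAP and 27.4 with YAP/TEAD4-S, with a ratio of 0.463 (0.325 to 0.638). HSPA8, the constitutive HSP70, had 93.04 and 46.96 CPM, with 11.4% of its bases shared across strands. HSP90AA1 had 278 CPM in the YAP/RBM4-labelled library and 451 with YAP/TEAD4-FL, beside 262 with the vector, 249.6 with YAP and 266 with YAP/TEAD4-S. YAP/TEAD4-FL was again highest and the other 4 lay between 249.6 and 278 CPM.

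Among RNA-binding proteins, the hnRNP and SR lists had medians 0.30 and 0.18 below that of all genes, and the difference between the lists was not tested. Of 24 hnRNP genes, 8 had an interval below 1 and 1 above, beside 10.9% and 14.8% of all genes. HNRNPAB had 86.5 CPM in the YAP/RBM4-labelled library and 168 with YAP/TEAD4-FL, beside 101 with the vector, 145 with YAP and 121 with YAP/TEAD4-S, with a ratio of 0.516 (0.437 to 0.6095), and HNRNPM, which acts on exon choice, had 0.556 (0.444 to 0.694). Neither was called at 2-fold. HNRNPUL2 was called higher at 2.24 (1.31 to 3.98), but it shares 44.3% of its bases with same-strand genes. Of 13 SR proteins, the best-known activators of exon inclusion, 0 were called, and of 33 core spliceosome genes 0. Of all genes, 2.83% were called in either direction. Ribosome biogenesis had 37 genes above 10 CPM, with 0 called higher and 2 lower, beside 1.91% and 0.915% of all genes. These were NOP56 and NOP58, the paired core proteins of box C/D small nucleolar particles, with 60.4 and 32.5 CPM with YAP/TEAD4-FL and 27.1 and 14.9 CPM in the YAP/RBM4-labelled library. Their ratios were 0.449 (0.332 to 0.599) and 0.458 (0.303 to 0.6803). Over the 37 genes the interval lay below 1 for 11 and above 1 for 3, beside 10.9% and 14.8% of all genes.

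Large housekeeping complexes differed little. Of 78 cytosolic ribosomal protein genes 0 were called and the median was 0.041 above that of all genes, with intervals above 1 for 20 on totals and 13 with TMM factors, beside 14.8% and 11.2% of all genes, and below 1 for 1 under both. RPS9 had the largest ratio among them, 1.36 (1.19 to 1.55). Among 50 respiratory chain subunits, 34 proteasome genes and 33 mitochondrial ribosomal protein genes 0 were called, beside 2.83% of all genes in either direction. The medians were 0.018 above, 0.057 below and 0.13 below that of all genes.

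The other 3 libraries were set beside the pair for the called genes. These genes were chosen by the difference within the pair, so the shares are a description, and the 3 libraries did not give the same picture. For 123 of the 159 higher genes (77.4%) the vector line was nearer to the YAP/RBM4-labelled library than to YAP/TEAD4-FL on the log2 scale, beside 49.97% of all genes, and for the lower genes this held for 47 of 76 (61.8%). With TMM factors the shares were 81.6% and 52.6%, beside 52.8% of all genes. The line with YAP alone was nearer for 85 of the higher genes (53.5%) and 38 of the 76 lower genes, beside 47.2% of all. With TMM factors its shares were 67.6% and 47.4%, beside 48.8% of all genes. YAP/TEAD4-S was nearer in 23.3% and 63.2% on totals, beside 42.4% of all genes. With TMM factors it was nearer in 60.3% and 35.8%, beside 46.7%, so its place depends on the scaling: the 50 most abundant genes took up 45.96% of its counts, against 32.5% and 31.99% in the pair. Over the 159 higher genes the median CPM was 33.6 in the YAP/RBM4-labelled library and 12.1 with YAP/TEAD4-FL, and those of the vector, YAP and YAP/TEAD4-S libraries were 30.3, 22.2 and 16.6. Over the 76 lower genes it was 29.2 with YAP/TEAD4-FL and between 11.5 and 18.6 in the other 4.

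Which library was the highest or lowest of the 5 is given for the gene groups as a description, without a test. With TMM factors YAP/TEAD4-FL was the highest of the 5 libraries for 17.2% of all genes and the lowest for 20.7%, and the YAP/RBM4-labelled library was the highest for 17.05% and the lowest for 20.99%. For chaperones YAP/TEAD4-FL was the highest in 19 of 28 genes (67.9%), for hnRNP genes in 15 of 24 (62.5%), for G2 and M phase genes in 15 of 27 (55.6%) and for DNA replication in 12 of 26 (46.2%). It was the lowest for 14 of 31 matrix genes (45.2%). For the ATF4 list the YAP/RBM4-labelled library was the highest in 18 of 28 genes (64.3%), and for cytosolic ribosomal proteins in 45 of 78 (57.7%), while YAP/TEAD4-FL was highest for 28 of these (35.9%). For the YAP/TEAD targets the YAP/RBM4-labelled library was the highest in 10 of 23 (43.5%). Genes of a group share their libraries and are not replicates.

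**Figure D4:**
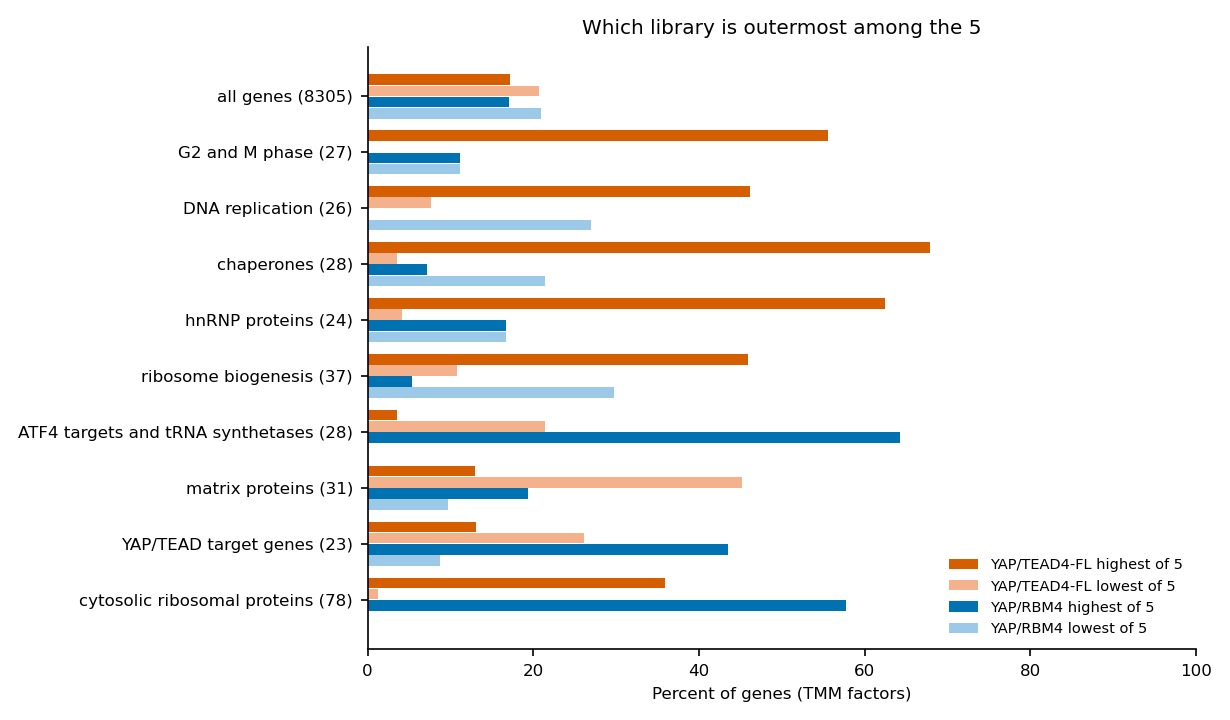
Share of genes, in percent (horizontal axis), for which YAP/TEAD4-FL or the YAP/RBM4-labelled library was the highest or the lowest of the 5 libraries with TMM factors, for all genes above 10 CPM and 9 gene lists (vertical axis, number of genes in brackets). YAP/TEAD4-FL is highest for 67.9% of the chaperones, and the YAP/RBM4-labelled library is highest for 64.3% of the ATF4 list.

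Markers of cell types were read to check the label of lung carcinoma cells. Of 12 lung and squamous epithelial markers, KRT8, KRT18 and SFTPB passed the filter, and EPCAM, KRT5, KRT14, KRT19, SOX2, TP63, NKX2-1, SFTPC and SCGB1A1 had at most 2.29 CPM in every library. The summed level of the list was 1332 CPM with YAP/TEAD4-FL, 450.3 CPM in the YAP/RBM4-labelled library and from 512 to 649 CPM in the others, led by the keratins given above. SFTPB, a surfactant protein, had 21.3 and 33.6 CPM. None of 9 fibroblast markers passed, with summed levels from 8.74 to 30.6 CPM. Of 10 leukocyte markers 4 passed, PTPRC, CD4, LYZ (34.7% of bases shared) and CD68 (81.6% shared), with summed levels from 374 to 486 CPM, while CD3E was at 0 in every library and MS4A1 had at most 0.417 CPM. PTPRC had 218 and 213 CPM, and CD4 was called higher at 2.09 (1.23 to 3.68). Of 6 endothelial markers PECAM1 passed, with a ratio of 1.06 (0.908 to 1.25), and VWF was at 0 throughout. The part of these names in the results above was not tested.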

How the data were processed

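The series holds RNA sequencing of 5 H157 lines, 1 library each, grouped by sample label. RSEM, run by the authors with Bowtie2 (2.2.5 per the submitters' processing notes) on hg19, gave the expected counts per gene that they deposited, unscaled. The RSEM version and kit strandedness are not given in the sources used here. The methods name polyadenylated RNA, a Total RNA kit and Ribo-Zero, so RNA selection is uncertain. EBSeq, with which the authors tested genes, was not run. Every column of the table was used.

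From the deposited expected counts, CPM on library totals, ratios after adding 0.5 CPM, and exact 95% Clopper-Pearson intervals of counts rounded to whole numbers (counting error only) were computed with Python 3.11.15 (numpy 2.4.6, pandas 2.3.3, scipy 1.17.1), and figures were drawn with matplotlib 3.10.9. From R 4.3.3, edgeR 4.0.16 gave only TMM factors and DESeq2 1.42.0 only size factors. Exon sharing was computed with bedtools (version 2.31.1) from GENCODE release 44 on GRCh37, in which 21537 of 25343 symbols were found by name and 1496 by a RefSeq synonym; 2310 were not matched, and exon sharing is not known for these. Upstream sequences are from RefSeq (GRCh38.p14). The scripts were tested on simulated counts.

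The pair, the gene lists and the rules were chosen with earlier results of these data known. Genes named are the constructs and their paralogs, the 12 highest and the 12 lowest ratios with at most 10% shared exon bases, up to 4 more each way without that rule, up to 4 members of each list by size, and cell type markers. Other members named within the lists, and the order of the 5 libraries, were chosen after their values were seen. Lists not described held 0 called genes, apart from MALAT1 (83.7% of exon bases shared across strands) among 18 housekeeping names. Some members of the lists are counted but not reported here by name.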

Additional observations from a re-analysis of the deposited data

How the results depend on the processing

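Of the counts of called genes, pseudocounts of 0.1 or 2 CPM, scaling by TMM or by DESeq2 size factors, and leaving the 50 most abundant genes out of the totals gave from 130 to 167 higher and from 56 to 101 lower genes, within 1.5 times the 159 and 76 given above. Other settings moved them further. With a mean of at least 1 CPM they were 1001 and 533, with a count above 0 in either library 1547 and 849, and with at least 50 CPM 42 and 11. At most 10% shared exon bases left 112 and 49, a 1.5-fold call gave 663 and 414, and a 4-fold call 14 and 4. A higher or lower fold changes the counts by construction, and for the filters the cause was not tested. The G2 and M phase median was −0.63 at 50 CPM or more, where fewer genes remain. The number of higher genes for which YAP/TEAD4-S was nearer to the YAP/RBM4-labelled library was 37 on totals, 82 with TMM factors, 79 with DESeq2 size factors and 75 without the 50 most abundant genes. In all, 439 of 440 values of list medians and all 9 values of the construct genes stayed within the limits set for them. For the named genes 668 values stayed and 7 moved beyond the limits. For the position of the other libraries 15 values stayed and 3 moved, and for the counts of called genes 13 stayed and 11 moved. With DESeq2 size factors the median log2 ratio of all genes was −0.013, against 0.059 on totals, so values near 0 turn over with the scaling, as did which side held more intervals beyond 1. No paired analysis was possible because each line gave 1 library, and for the same reason no library could be left out in turn. Depth limits single genes: at 10 CPM a library of this size holds few reads, 1 count being 0.417 CPM with YAP/TEAD4-FL and 0.382 CPM in the YAP/RBM4-labelled library.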

Other observations

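Antigen presentation and complement genes are described here for the same pair. HLA-C, a class I antigen-presenting molecule, had 131 CPM in the YAP/RBM4-labelled library and 59.2 with YAP/TEAD4-FL, beside 218 with the vector, 82.003 with YAP and 49.3 with YAP/TEAD4-S, with a ratio of 2.21 (1.81 to 2.71) (exact 95% counting interval, as throughout). HLA-B had a ratio of 1.897 (1.53 to 2.37), with 30.7% of its exon bases shared with other genes, and the copies of this family may share reads. HLA-B thus lay under 2-fold. For both genes the vector line was the highest library. Of 20 genes of the interferon response and antigen presentation 1 was called higher and 0 lower, beside 1.91% and 0.915% of all genes. HLA-C and HLA-B, the members named, had ratios above 1, and the rest of this list is not described here. Of 10 complement genes 2 were called higher, beside 1.91% of all genes, F3 (also on the list of YAP/TEAD targets) and CFB (complement factor B), which had 6.68 and 14.7 CPM in the pair and 99.4 CPM with the vector, with 42.8% of its exon bases shared.

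In the TGF-beta and BMP list 1 of 20 genes was called in each direction, beside 1.91% of all genes higher and 0.915% lower. ID1, an inhibitor of helix-loop-helix factors and a target of BMP signals, had 12.6 CPM in the YAP/RBM4-labelled library and 28.004 with YAP/TEAD4-FL, beside 15.5 with the vector, 16.4 with YAP and 9.62 with YAP/TEAD4-S, with a ratio of 0.4499 (0.288 to 0.694). LTBP2, a latent TGF-beta binding protein of microfibrils, had 413 CPM in the YAP/RBM4-labelled library and 206 with YAP/TEAD4-FL, beside 703 with the vector, 381 with YAP and 265 with YAP/TEAD4-S, with a ratio of 2.004 (1.8001 to 2.23), at the edge of the call. GAS6, the ligand of the receptor AXL, and GAS6-AS1, the antisense gene of the same locus, were both called higher, with ratios of 2.82 (2.198 to 3.65) and 2.13 (1.92 to 2.37). They and TYMSOS and SLFNL1 below were chosen after their values were seen.

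Among 18 NRF2 targets 0 were called, beside 2.83% of all genes called in either direction. SRXN1, a reductase of oxidised peroxiredoxins, had the lowest ratio of the list, 0.514 (0.3904 to 0.672), with 90.7% of its exon bases shared, and FTH1, the ferritin heavy chain, the highest, 1.59 (1.45 to 1.74), with 63.2% opposite to other exons. Among 21 genes of cholesterol and fatty acid synthesis 0 were called. FASN, the fatty acid synthase, had 91.7 CPM in the YAP/RBM4-labelled library and 163 with YAP/TEAD4-FL, beside 57.3 with the vector, 67.9 with YAP and 81.9 with YAP/TEAD4-S, and YAP/TEAD4-FL stood above the other 4, with a ratio of 0.563 (0.477 to 0.663). BBC3, which encodes the pro-death protein PUMA, had 14.2 and 27.1 CPM and a ratio of 1.91 (1.25 to 2.97), and MCL1, a pro-survival member of the same family, had 1.71 (1.41 to 2.08). Neither was called.

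Some values depend on how reads are split between names. FNTB, the beta subunit of protein farnesyltransferase, was called lower, with 30.04 and 6.76 CPM, while CHURC1-FNTB, the read-through gene that holds its exons, had 0 counts with YAP/TEAD4-FL and 13.1 CPM in the YAP/RBM4-labelled library. Against the floor of 3 counts CHURC1-FNTB was at least 10.5-fold higher. They share 44.02% and 100% of their exon bases with same-strand genes. Across 161 antisense pairs with both genes above 10 CPM, Pearson's r of both log2 ratios was 0.37 and Spearman's rho 0.27, a description across pairs, which share their libraries, and 94 pairs had both genes on the same side of the median of all genes. In 15 pairs 1 gene or both were called, and 7 of these had both on the same side. TYMSOS, with 15.4% of its bases shared, had a ratio of 0.3597 (0.301 to 0.428), beside 0.7203 (0.617 to 0.837) for TYMS (47.9% of bases shared), the thymidylate synthase opposite to it. SLFNL1 had a ratio of 0.283 (0.211 to 0.376), beside 1.08 (0.953 to 1.23) for SLFNL1-AS1, and they share 30.2% and 29.9% of their bases. VAX1, a homeobox gene and the most abundant name of the table, had 60054 CPM in the YAP/RBM4-labelled library and 42206 with YAP/TEAD4-FL, beside 63157 with the vector, 7133 with YAP and 140664 with YAP/TEAD4-S, and differed by a ratio of 1.42 (1.41 to 1.43) in the pair.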
